A study of Cucumis sativus with 12 samples.

Results

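CsaV3_4G037250 and CsaV3_4G037260 are consecutive gene IDs, on cucumber chromosome 4 by their prefix, described in the deposited annotation as catalase isozyme 1 and catalase isozyme 1-like. They are 2 of 24317 genes in the expression table and 2 of the 3 genes there whose description names a catalase. The pair was chosen by its FPKM across the 4 sampling times, so its own levels are given here as a description, without a test. FPKM counts sequenced fragments relative to transcript length and to the number of mapped fragments, so that levels of genes of different length can be set side by side.

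Catalase is a heme enzyme that splits hydrogen peroxide into water and oxygen without needing a reducing partner. In leaf cells it sits in the peroxisome, next to the oxidases that make the peroxide, above all glycolate oxidase of photorespiration. Cytosolic and chloroplast peroxidases of the ascorbate-glutathione cycle work beside it at lower peroxide levels. Plant catalases form a small family whose members differ in tissue, light response and time of day.

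The plants were seedlings of JinYan No. 4, a cucumber inbred line, raised in a phytotron to the stage of 3 true leaves and then moved from warmer, longer days to a cold regime of 15 °C by day and 6 °C by night, with 12 h of each. Leaves were taken after 3, 12 and 24 h of cold and, as the only control, at 0 h without cold, with 3 biological replicates at each time. No leaves kept warm for 3, 12 or 24 h are part of these data, so time in the cold cannot be told apart from the hour of the day at 3 and 12 h, nor from the shortened light period. The 24 h leaves were a day older than the 0 h leaves and were sampled at the same clock hour.

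The 12 libraries had FPKM sums of 561513 to 586297. The sources used here do not state their read numbers, so the counting error behind a low FPKM value is unknown. Of the 24317 genes, 17497 reached 0.5 FPKM in at least 3 libraries and were tested with limma on log2(FPKM + 0.5). Calls needed an adjusted p (Benjamini-Hochberg) below 0.05 together with a log2 fold change beyond 1 or -1. The calls numbered 1731 higher and 943 lower at 3 h, 1684 higher and 2912 lower at 12 h, and 2315 higher and 3159 lower at 24 h, each against 0 h. Over all tested genes the median log2 fold change was 0.03 at 3 h, -0.23 at 12 h and -0.17 at 24 h. Fold changes are given as fitted, with these shifts in them. Among the 5474 genes called at 24 h, replicate 2 was the 24 h library nearest the 0 h mean for 43% of them, against 30.7% for replicate 1 and 26.3% for replicate 3.

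CsaV3_4G037250 was among the most abundant leaf transcripts, and its level was lower at each later time. Its FPKM was 1913, 1928 and 1950 at 0 h, 1591, 1477 and 1475 at 3 h, 1245, 1342 and 1455 FPKM at 12 h, and 622, 808 and 577 at 24 h. No library of any time overlapped with those of the time before it, and the 24 h libraries stood well below all others. The means were 1930 ± 18.4, 1515 ± 66.5, 1347 ± 105 and 669 ± 122 FPKM at 0, 3, 12 and 24 h (SD, n = 3 each). Ranked by mean FPKM among all genes, it stood in place 18 at 0 h, then 24, 47 and 91 at 3, 12 and 24 h.

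Against 0 h, the log2 fold change of CsaV3_4G037250 was -0.35 at 3 h, -0.52 at 12 h and -1.54 at 24 h. The mean at 24 h was 0.347 times that at 0 h, a 2.89-fold lower level. The step from the previous time was -0.17 at 12 h and -1.02 at 24 h on the log2 scale, so that most of the difference lay between 12 and 24 h. The 12 h value depended on how the libraries were scaled. It was -0.25 after median-ratio rescaling, which sets the median of all genes near 0, and -0.88 after quantile normalization. The 24 h value was -1.34 and -1.63 under the same alternatives. Without 24 h replicate 2, whose 808 FPKM was the nearest to 0 h, it was -1.69.

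CsaV3_4G037260 was a rare transcript with the opposite course. Its FPKM was 0.642, 0.4 and 0.713 at 0 h, 0.752, 0.75 and 0.441 at 3 h, 0.93, 1.15 and 1.02 FPKM at 12 h, and 2.96, 2.16 and 3.49 at 24 h. The 3 h libraries overlapped with those at 0 h, whereas all 12 h libraries lay above both, and all 24 h libraries lay above those at 12 h. The means were 0.585 ± 0.164, 0.648 ± 0.179, 1.03 ± 0.108 and 2.87 ± 0.672 FPKM at 0, 3, 12 and 24 h (SD, n = 3 each). By mean FPKM it stood in place 16165 of all genes at 0 h and in place 12113 at 24 h.

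The log2 fold change of CsaV3_4G037260 against 0 h was 0.08 at 3 h, 0.51 at 12 h and 1.63 at 24 h on the log2(FPKM + 0.5) scale, which understates changes at such low levels. Without the added 0.5, the ratio of the means was 1.11 at 3 h, 1.77 at 12 h and 4.9 at 24 h. The 3 h value took the other sign, -0.06, after quantile normalization. With 0.1 in place of 0.5 the log2 fold change was 0.75 at 12 h and 2.12 at 24 h. Without 24 h replicate 2, again the 24 h library nearest to 0 h with 2.16 FPKM, it was 1.79 at 24 h. The gene reached the filter of 0.5 FPKM in every library at 12 and 24 h but not in 0 h replicate 2 or 3 h replicate 3.

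**Figure D1:**
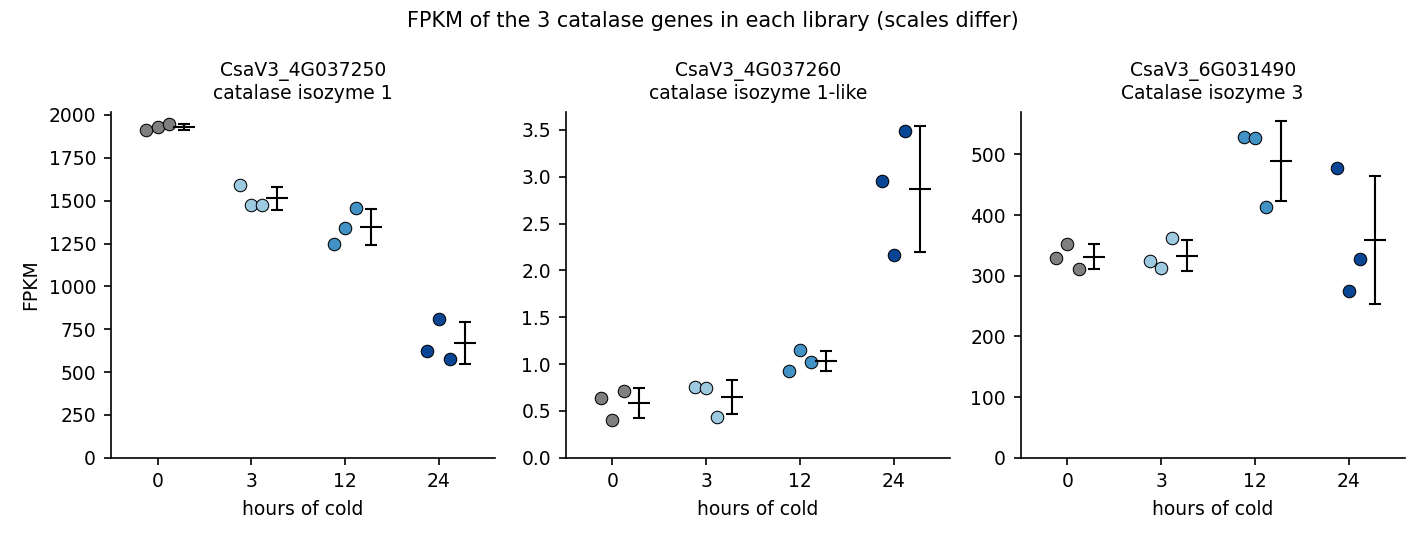
FPKM (vertical axis, from 0, with a scale of its own in each panel) of CsaV3_4G037250, CsaV3_4G037260 and CsaV3_6G031490 after 0, 3, 12 and 24 h of cold (horizontal axis). Circles are the 3 libraries of each time and black marks the mean with its SD. The 24 h libraries of CsaV3_4G037250 lie at 577 to 808 FPKM, below all earlier ones, and those of CsaV3_4G037260 at 2.16 to 3.49 FPKM, above all earlier ones.

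Non-overlap of 3 libraries with 3 was common among all tested genes, so it marks neither member as unusual. All 3 libraries lay below the 0 h libraries for 31.9% of tested genes at 3 h, 46.8% at 12 h and 44.7% at 24 h, as they did for CsaV3_4G037250 at each time. All 3 lay above the 0 h libraries for 36.0% at 3 h, 26.3% at 12 h and 29.9% at 24 h, as they did for CsaV3_4G037260 at 12 and 24 h. These shares are given beside the pair only as a background, since the pair was picked by these same values.

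The opposite courses brought the levels of both genes closer without bringing them near each other. The FPKM of CsaV3_4G037250 was 2735 to 4815 times that of CsaV3_4G037260 across the 0 h libraries, 1968 to 3342 times at 3 h, 1172 to 1420 times at 12 h and 165 to 374 times at 24 h. The log2 ratio of the pair, with 0.5 added to both, averaged 10.81 ± 0.22, 10.38 ± 0.21, 9.78 ± 0.11 and 7.64 ± 0.55 after 0, 3, 12 and 24 h (SD, n = 3 each). Against 0 h this is a difference of -0.43 at 3 h, -1.03 at 12 h and -3.17 at 24 h. Being a ratio within each library, it is free of a common scaling factor apart from the added 0.5. With 0.1 in place of 0.5 the 12 h difference was -1.27. Even at 24 h, CsaV3_4G037260 made up 0.267% to 0.602% of the summed FPKM of the pair.

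The annotation does not separate both genes. They carry the same 6 Gene Ontology terms, among them catalase activity, heme binding and response to oxidative stress, and the same 4 KEGG pathways, which are peroxisome, glyoxylate and dicarboxylate metabolism, tryptophan metabolism and plant MAPK signalling. The catalase activity term was carried by 5 genes in all, and only the 3 described as catalase are counted as catalases here. The description of CsaV3_4G037260 was taken from a melon protein. The sources used here do not state how fragments matching more than 1 gene were assigned. With neighbours of the same description whose levels differ by at least 165-fold in every library, the low values of CsaV3_4G037260 are uncertain to the extent that fragments could be shared.

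The remaining catalase, CsaV3_6G031490 or Catalase isozyme 3 on chromosome 6, took neither course. Its FPKM was 330, 353 and 311 at 0 h, 324, 313 and 362 at 3 h, 528, 527 and 413 FPKM at 12 h, and 477, 274 and 327 at 24 h. The 12 h libraries lay above all of those at 0 and 3 h, and the 24 h libraries spread from below the 0 h range into the 12 h range. The means were 331 ± 20.7, 333 ± 25.7, 490 ± 66.3 and 359 ± 106 FPKM at 0, 3, 12 and 24 h (SD, n = 3 each). Its log2 fold change of 0.01 at 3 h (limma, adjusted p = 0.975), 0.56 at 12 h (adjusted p = 0.0109) and 0.08 at 24 h (adjusted p = 0.685) was not called at any time. At 24 h its replicates 1, 2 and 3 were ordered differently from those of CsaV3_4G037250, with replicate 2 lowest.

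Summed over the 3 catalases, transcript levels were 2262 ± 18.4, 1848 ± 63.1, 1838 ± 55 and 1031 ± 108 FPKM after 0, 3, 12 and 24 h (SD, n = 3 each). CsaV3_4G037250 supplied 85.3% ± 0.846, 81.9% ± 1.47, 73.3% ± 4.05 and 64.9% ± 9.11 of this sum at 0, 3, 12 and 24 h. The share of Catalase isozyme 3 was 14.6% ± 0.852, 18% ± 1.48, 26.7% ± 4.05 and 34.9% ± 9.07 at the same times. At 24 h the share of CsaV3_4G037250 ranged over 56.4%, 74.5% and 63.6% in replicates 1, 2 and 3, and the second of these lay within the 12 h range of 70.2% to 77.8%. CsaV3_4G037260 made up at most 0.385% of the sum in any library.

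**Figure D2:**
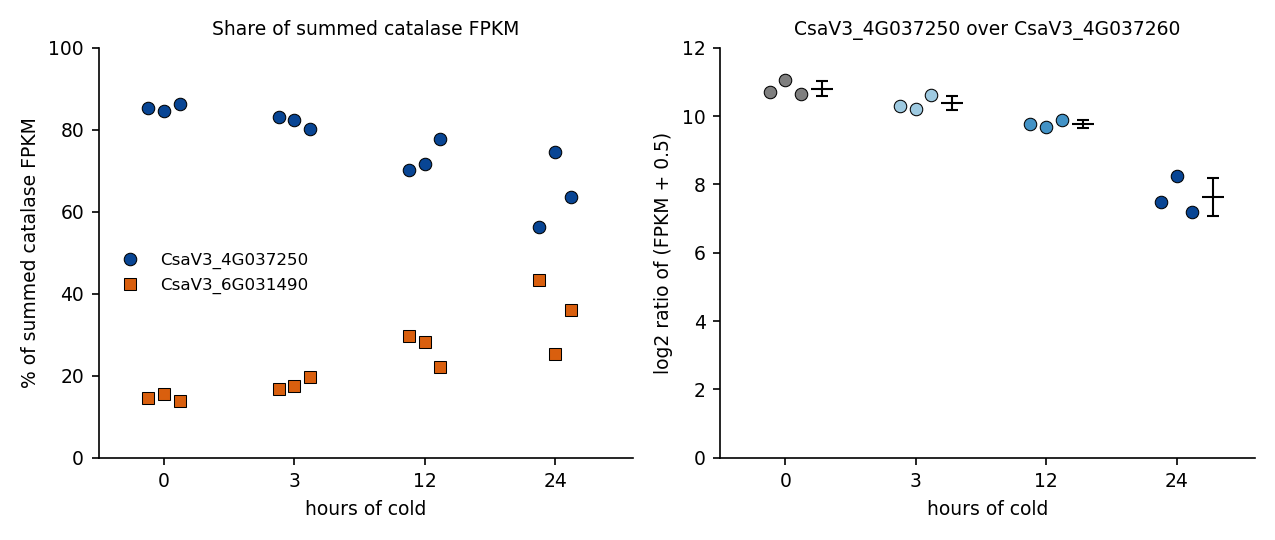
Left, percent of the summed FPKM of the 3 catalase genes supplied by CsaV3_4G037250 (blue circles) and CsaV3_6G031490 (orange squares) in each library after 0, 3, 12 and 24 h of cold. Right, log2 ratio of CsaV3_4G037250 to CsaV3_4G037260, with 0.5 FPKM added to both, in each library, with the mean and SD of each time in black. The share of CsaV3_4G037250 averages 85.3% at 0 h and 64.9% at 24 h, and the log2 ratio averages 10.81 at 0 h and 7.64 at 24 h.

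Whole leaves hold several cell types, and fewer cells of a type cannot be told apart from less RNA per cell in bulk samples. Mesophyll, where most leaf catalase is found, was followed by 42 genes for Rubisco small subunits, light-harvesting proteins and photosystem subunits. Their summed level was 46748 to 52624 FPKM at 3 h, 91208 to 109053 at 12 h and 56728 to 77391 at 24 h, against 49164 to 55672 at 0 h, and at most 1 of them was at 0 at any time. Of the 41 tested, 9 were called higher and 1 lower at 24 h, with a median log2 fold change of 0.02. These calls are 22% and 2.44% of the 41 genes, beside 13.2% and 18.1% of all tested genes. At 12 h 16 were called higher and 1 lower (39% and 2.44%), with a median of 0.74, beside 9.62% and 16.6% of all tested genes. At 3 h 9 were called higher and 0 lower (22% and 0%), with a median of 0.01, beside 9.89% and 5.39%. A list of 37 epidermis and cuticle genes summed to 6406 to 7357 FPKM at 3 h, 2406 to 3078 at 12 h and 2765 to 3656 at 24 h, against 2881 to 3075 at 0 h, with 3 to 6 of them at 0. Of the 26 tested, 12 were called higher and 0 lower at 3 h (46.2% and 0%), beside 9.89% and 5.39% of all tested genes. At 12 h 2 were called higher and 4 lower (7.69% and 15.4%), beside 9.62% and 16.6%. At 24 h 5 were called higher and 5 lower (19.2% each), beside 13.2% and 18.1%. Phloem genes (12 in the list, 1 or 2 at 0) summed to 340 to 479 FPKM at 3 h, 395 to 438 at 12 h and 387 to 540 at 24 h, against 490 to 818 at 0 h. Xylem genes (36 in the list, 1 to 6 at 0) summed to 117 to 129 FPKM at 3 h, 180 to 216 at 12 h and 91.2 to 121 at 24 h, against 109 to 115 at 0 h. The part of these levels in the values of the pair was not tested.

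Around the pair, 100 genes were listed by their descriptions, and 90 of them were tested. They were genes that make or remove hydrogen peroxide or build the peroxisome, together with 23 genes of photorespiration and 2 of the glyoxylate cycle. The name hydrogen peroxide genes covers all of these lists. At 3 h 9 were called higher and 1 lower, beside 9.89% and 5.39% of all tested genes. At 12 h 7 were called higher and 14 lower, beside 9.62% and 16.6% of all tested genes. At 24 h 10 were called higher and 12 lower, beside 13.2% and 18.1% of all tested genes. As shares of the 90 genes, the higher calls were 10%, 7.78% and 11.1% at the 3 times and the lower calls 1.11%, 15.6% and 13.3%, near the background except for the few lower calls at 3 h and, to a smaller extent, at 24 h. Their median log2 fold change was -0.08, -0.29 and -0.14 at 3, 12 and 24 h. The split moved with the scaling. It was 8 higher and 10 lower at 12 h and 13 higher and 9 lower at 24 h after median-ratio rescaling, and 9 higher and 4 lower at 3 h after quantile normalization. All tested genes moved likewise, with 53.9% of the calls at 12 h and 53.7% of those at 24 h being higher after median-ratio rescaling, in place of 36.6% and 42.3%. At 3 h 54.1% were higher after quantile normalization in place of 64.7%.

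Among 25 oxidases that release hydrogen peroxide or its precursor superoxide, 19 were tested, and 5 were called higher and 0 lower at 3 h, with 4 higher and 4 lower at both 12 and 24 h. The share higher was 26.3% at 3 h and 21.1% later, beside 9.89%, 9.62% and 13.2% of all tested genes, and the share lower at 12 and 24 h was 21.1%, beside 16.6% and 18.1%. At 3 and 24 h the largest rise in this list was that of CsaV3_3G043480, respiratory burst oxidase homolog protein C, a plasma membrane enzyme that makes superoxide outside the cell. It had 70.5, 96.5 and 88.3 FPKM at 3 h, 17.4, 14.4 and 15.5 FPKM at 12 h, and 83.9, 62.4 and 91.9 at 24 h, against 5.41, 1.6 and 5.98 at 0 h. Its levels were high at 3 and 24 h and lower, though still above 0 h, at 12 h. The log2 fold change was 4.30 at 3 h, 1.91 at 12 h and 4.19 at 24 h (SE 0.35 each), with limma adjusted p-values of 1.8e-06, 0.000512 and 8.46e-07.

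Polyamine oxidases break down spermine and spermidine and release peroxide. At 3 h 3 of the 4 in the oxidase list were called higher, beside 9.89% of all tested genes. These 4 were not a list of their own. CsaV3_4G032140, probable polyamine oxidase 2, had 28.9, 35.4 and 33.7 FPKM at 3 h, 21.3, 13.5 and 16.5 FPKM at 12 h, and 52.2, 47.7 and 61.9 at 24 h, against 7.5, 7.49 and 7.12 at 0 h. Every cold library lay above the 0 h libraries. On the log2 scale the change was 2.07 at 3 h, 1.14 at 12 h and 2.78 at 24 h (SE 0.14 each), with limma adjusted p-values of 2.26e-07, 1.7e-05 and 4.66e-09, and the 12 h value was 0.97 and no longer called without 12 h replicate 1. CsaV3_2G001470, probable polyamine oxidase 5, averaged 4.5 ± 1.15 FPKM at 3 h and 9.27 ± 1.88 at 12 h, against 1.03 ± 0.412 at 0 h (SD, n = 3 each), and was called higher at both times. At 24 h its log2 fold change of 0.87 was not called, but it was 1.08 and called without 0 h replicate 2, and 1.04 without 24 h replicate 3. CsaV3_7G030830, polyamine oxidase 1, averaged 8.27 ± 0.594 FPKM at 3 h against 3.27 ± 0.74 at 0 h (SD, n = 3 each), with a log2 fold change of 1.24. The fourth gene, CsaV3_4G007490, is also described as probable polyamine oxidase 2 and was the most abundant of them at 0 h. It averaged 60.4 ± 5.58 FPKM at 3 h, 59.9 ± 3.19 at 12 h and 58.8 ± 7.57 at 24 h, against 109 ± 1.87 at 0 h, and its log2 fold changes of -0.84, -0.85 and -0.89 were not called. CsaV3_7G030830 and CsaV3_4G007490 are named after their values were seen.

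The oxidases called lower included enzymes of the peroxisome itself. CsaV3_2G034560, an acyl-coenzyme A oxidase 3 of fatty acid breakdown, had 7.98 ± 1.44 FPKM at 12 h against 21.0 ± 0.845 at 0 h (SD, n = 3 each), which is -1.35 on the log2 scale (limma, adjusted p = 1.5e-06). CsaV3_UNG137080, a second acyl-coenzyme A oxidase, had 2.41 ± 0.521 FPKM at 12 h against 6.57 ± 0.364 at 0 h, or -1.29 on the log2 scale. Neither was called at 24 h. Called lower at both 12 and 24 h were sulfite oxidase-like CsaV3_1G013880, with log2 fold changes of -1.17 and -1.18, and CsaV3_3G030870, with -1.01 and -1.23. The latter, described as peroxisomal (S)-2-hydroxy-acid oxidase GLO4, averaged only 3.71 ± 0.58 FPKM at 0 h. Both are named after their values were seen, without values under the alternatives. CsaV3_5G002350 and CsaV3_6G021980, the respiratory burst oxidase homologs A and H, passed the threshold at 24 h, being lower by log2 fold changes of -1.35 and -1.27, but not at 3 or 12 h.

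Glycolate oxidase, the photorespiratory source of peroxisomal peroxide, is given by the abundant gene CsaV3_6G051820, described as peroxisomal (S)-2-hydroxy-acid oxidase GLO1 and named here after its values were seen. It had 1633, 1576 and 1507 FPKM at 3 h, 1659, 1737 and 1725 FPKM at 12 h, and 1222, 1323 and 1163 at 24 h, against 2083, 2073 and 2192 at 0 h. Its libraries lay below 0 h at all 3 times and were lowest at 24 h. The log2 fold change of -0.43, -0.31 and -0.78 at 3, 12 and 24 h (SE 0.07 each; limma, adjusted p = 0.000137, 0.00106 and 3.74e-07) did not reach the fold needed for a call.

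Of 23 photorespiration genes, 21 were tested, and 2 were called higher and 1 lower at 3 h, 2 higher and 2 lower at 12 h, and 2 higher and 4 lower at 24 h. The share higher was 9.52% at each time, beside 9.89%, 9.62% and 13.2% of all tested genes. The share lower was 4.76%, 9.52% and 19% at 3, 12 and 24 h, beside 5.39%, 16.6% and 18.1%. Serine--glyoxylate aminotransferase, which clears the glyoxylate that glycolate oxidase makes, was lower. CsaV3_6G039090 averaged 646 ± 31 FPKM at 3 h, 374 ± 22.1 at 12 h and 503 ± 52.9 at 24 h, against 1060 ± 12.7 at 0 h (SD, n = 3 each). The log2 fold change reached -1.50 at 12 h (limma, adjusted p = 8.04e-09) and -1.08 at 24 h (adjusted p = 1.2e-07). The 24 h call was lost after median-ratio rescaling, at -0.87, and without 24 h replicate 2, at -0.99. Serine hydroxymethyltransferases 4 (CsaV3_2G011710) and 7-like (CsaV3_4G028640), which interconvert glycine and serine, were called higher at all 3 times. CsaV3_4G028640 averaged 47.3 ± 1.82 FPKM at 3 h, 91.3 ± 5.16 at 12 h and 92.4 ± 15.8 at 24 h, against 14.7 ± 0.289 at 0 h (SD, n = 3 each). No other serine hydroxymethyltransferase in the list was called. The most abundant, mitochondrial CsaV3_6G044790, named after its values were seen, averaged 1348 ± 45.5 FPKM at 0 h. Its levels were lower in the cold, with log2 fold changes of -0.43, -0.34 and -0.30 at 3, 12 and 24 h. A hydroxypyruvate reductase, HPR3-like CsaV3_3G009450, was called lower at 12 h (log2 fold change -1.50) and at 24 h (-1.28). At 3 h its value was -1.02, and -0.98 without 3 h replicate 1.

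The glyoxylate cycle turns the products of fatty acid breakdown into sugar precursors in the peroxisomes of seedlings and senescing leaves. Both of its 2 listed enzymes were called higher at 24 h, beside 13.2% of all tested genes. At 3 h 1 of the 2 was called higher and at 12 h 1 was called lower, beside 9.89% and 16.6% of all tested genes. Isocitrate lyase, CsaV3_2G035120, had 16.9, 14.4 and 12.7 FPKM at 24 h, against 2.12, 2.02 and 2.03 at 0 h. Its log2 fold change of 2.56 at 24 h (SE 0.15; limma, adjusted p = 1.63e-08) stood beside -0.58 at 3 h and -0.97 at 12 h, neither of which was called, though the 12 h value was -1.06 and called without 12 h replicate 1. Malate synthase, CsaV3_1G009520, had 30.9, 29.6 and 35.9 FPKM at 3 h, 2.02, 2.16 and 1.84 FPKM at 12 h, and 71.5, 35.8 and 65.7 at 24 h, against 9.24, 11 and 9.15 at 0 h. It was above 0 h at 3 and 24 h and below it at 12 h, without overlap at any time. The log2 fold changes were 1.66, -2.04 and 2.44 (SE 0.20 each), with limma adjusted p-values of 2.71e-05, 2.55e-06 and 4.33e-07.

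Among the other scavengers of peroxide, 10 of 12 listed genes of the ascorbate-glutathione cycle were tested. At 3 h 0 were called, beside 9.89% higher and 5.39% lower of all tested genes. At 12 h 1 was called higher and 2 lower (10% and 20%), beside 9.62% and 16.6%. At 24 h 1 was called higher and 1 lower (10% each), beside 13.2% and 18.1%. CsaV3_1G033510, a cytosolic ascorbate peroxidase that uses ascorbate to reduce peroxide, had 888, 888 and 958 FPKM at 12 h and 941, 978 and 953 at 24 h, against 398, 424 and 409 at 0 h. Its log2 fold change was 1.15 at 12 h and 1.22 at 24 h (SE 0.06 each), with limma adjusted p-values of 6.41e-09 and 2.68e-09, and the 12 h value was 0.92 after quantile normalization. At 24 h its mean of 958 FPKM was above the 669 FPKM of CsaV3_4G037250, whereas at 0 h it was 410 FPKM against 1930. CsaV3_5G027310, a cytosolic monodehydroascorbate reductase that regenerates ascorbate, was lower, with 66.4, 69.4 and 68.5 FPKM at 12 h and 71.0, 63.3 and 69.9 at 24 h, against 252, 247 and 250 at 0 h. The change was -1.87 on the log2 scale at both times (SE 0.06 each; limma, adjusted p = 1.05e-10 and 6.59e-11). The other gene called lower at 12 h, the rare monodehydroascorbate reductase-like CsaV3_3G005990, had 0.2 ± 0.0879 FPKM at 12 h against 1.18 ± 0.156 at 0 h (SD, n = 3 each). Its 24 h value of -0.97 was not called, but was -1.04 and called without 0 h replicate 2, and -1.11 without 24 h replicate 2.

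Of 11 peroxiredoxins and glutathione peroxidases, thiol enzymes that reduce peroxides, none was called at 3 or 24 h. At 12 h 1 was called lower, or 9.09%, beside 16.6% of all tested genes. That gene, 1-Cys peroxiredoxin A (CsaV3_3G015450), had a log2 fold change of -1.15, which was -0.93 after median-ratio rescaling or quantile normalization. None of 6 superoxide dismutases, which make peroxide from superoxide, was called at any time, and their median log2 fold change was 0.23, 0.13 and 0.19 at 3, 12 and 24 h.

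Among 21 tested genes for peroxisome biogenesis and membrane proteins, 1 was called higher at 3 h, 4 lower at 12 h, and 1 higher and 3 lower at 24 h. The share higher was 4.76% at 3 and 24 h, beside 9.89% and 13.2% of all tested genes. The share lower was 19% at 12 h and 14.3% at 24 h, beside 16.6% and 18.1%. Peroxisome biogenesis protein 22 (CsaV3_7G003770), which in Arabidopsis and yeast anchors an enzyme that recycles import receptors, was lower at every time. It had 45.4, 43.0 and 46.7 FPKM at 3 h, 24.2, 20.5 and 21.1 FPKM at 12 h, and 15.4, 13.4 and 17.0 at 24 h, against 89.5, 86.6 and 80.9 at 0 h. Its log2 fold change was -1.94 at 12 h and -2.46 at 24 h (SE 0.09 each), with limma adjusted p-values of 2.42e-09 and 2.36e-10. Another gene described as peroxisome biogenesis protein 22, CsaV3_2G035190, was not called. Its log2 fold changes were 0.14, -0.47 and -0.75 at 3, 12 and 24 h, and it averaged 16.3 ± 2.1 FPKM at 24 h against 27.6 ± 1.3 at 0 h. Peroxisomal membrane protein 11A (CsaV3_2G028520), of a family that divides peroxisomes, was called lower at 12 h (log2 fold change -1.36) and at 24 h (-1.22). A gene described as peroxisomal membrane protein PMP22 (CsaV3_2G012630) was the gene called higher, with 1.39 at 3 h and 1.65 at 24 h (SE 0.31 each). Another gene of that description, CsaV3_6G048870, took a different course and was not called. Its log2 fold changes were -0.92, 0.70 and -0.21 at 3, 12 and 24 h. CsaV3_2G035190 and CsaV3_6G048870 are named after their values were seen, without values under the alternatives.

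**Figure D3:**
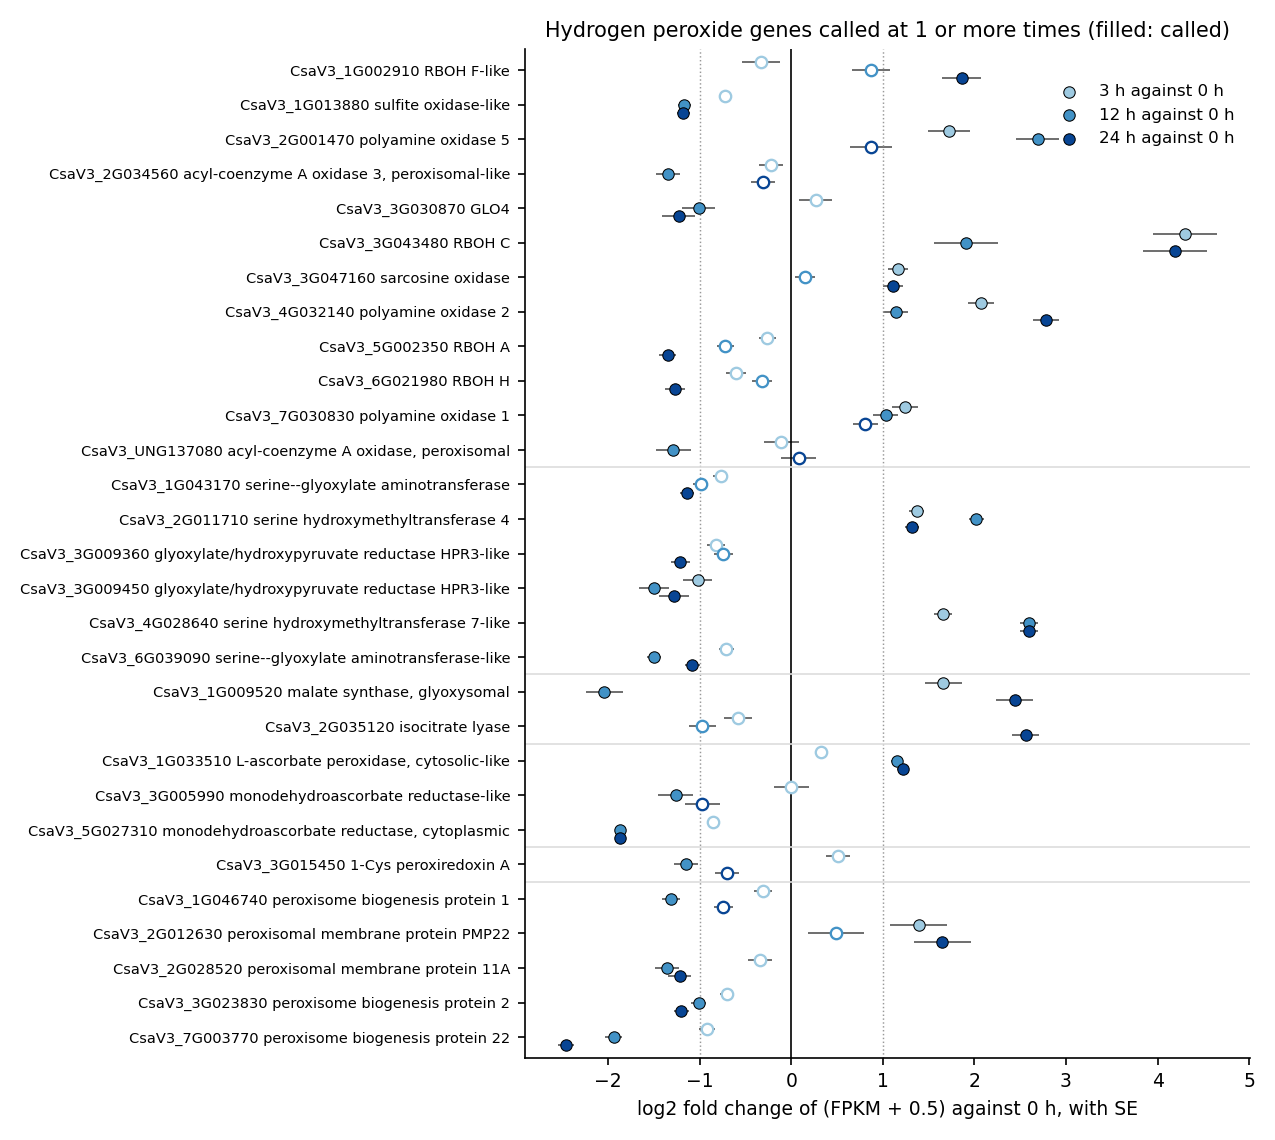
Log2 fold change of FPKM + 0.5 against 0 h (horizontal axis, with SE) for the listed hydrogen peroxide genes called at 1 or more times, at 3 h (light), 12 h (middle blue) and 24 h (dark). Filled circles are calls (limma, adjusted p under 0.05 and beyond the dotted lines at 1 and -1), and grey lines part the oxidases, photorespiration, glyoxylate cycle, ascorbate-glutathione cycle, peroxiredoxins and peroxisome genes from top to bottom. Respiratory burst oxidase C reaches 4.30 at 3 h and 4.19 at 24 h, and peroxisome biogenesis protein 22 -2.46 at 24 h.

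Genes known in Arabidopsis to act on catalase were also looked up. All 7 that the descriptions gave were tested, and 0 were called at 3 h, 2 lower at 12 h and 3 lower at 24 h, or 28.6% and 42.9% of 7 genes, beside 16.6% and 18.1% of all tested genes. G-box-binding factor 1, a bZIP factor that represses the Arabidopsis catalase 2 gene, is CsaV3_6G046080. It had 87.3, 85 and 94.5 FPKM at 3 h, 64.5, 63.7 and 59.3 FPKM at 12 h, and 64.0, 51.3 and 52.6 at 24 h, against 168, 169 and 178 at 0 h. Its log2 fold change was -1.45 at 12 h and -1.62 at 24 h (SE 0.08 each), with limma adjusted p-values of 1.44e-08 and 4.05e-09. The 3 h value of -0.95 was not called, and was -1.03 and called after quantile normalization. Calmodulin, a calcium sensor that binds a plant catalase and raises its activity, was given by several genes, of which CsaV3_4G027680 was the most abundant. It had 82.3, 90.0 and 72.3 FPKM at 24 h, against 252, 230 and 255 at 0 h, and its log2 fold change was -1.59 (SE 0.09; limma, adjusted p = 6.09e-09). Its 12 h value of -1.05 was -0.79 and not called after median-ratio rescaling. Among the other calmodulin genes, calmodulin-beta-like CsaV3_6G006120 was the remaining lower call at 24 h, reaching -1.01 on the log2 scale (limma, adjusted p = 9.06e-06). Calmodulin-like CsaV3_2G013830 was not called at any time, and its largest value was 0.92, at 3 h. Both genes described as calmodulin-7-like, CsaV3_4G023180 and CsaV3_UNG234380, had log2 fold changes of 0.76 and 0.65 at 24 h and were not called. These other calmodulin genes are all named after their values were seen. CsaV3_6G006120 and CsaV3_2G013830 have no values under the alternatives.

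Catalase genes of other plants follow the time of day, so 17 tested clock genes are given beside the pair. At 3 h 2 were called higher and 1 lower, at 12 h 6 higher and 4 lower, and at 24 h, sampled at the same clock hour as 0 h, 7 higher and 2 lower. As shares of the 17 genes, the higher calls were 11.8%, 35.3% and 41.2% at the 3 times, beside 9.89%, 9.62% and 13.2% of all tested genes, and the lower calls 5.88%, 23.5% and 11.8%, beside 5.39%, 16.6% and 18.1%. LHY-like (CsaV3_6G008360), a factor of the morning, averaged 236 ± 2.85 FPKM at 12 h and 157 ± 12.2 at 24 h, against 667 ± 19.4 at 0 h (SD, n = 3 each). APRR3 (CsaV3_5G000090), a factor of the evening, averaged 363 ± 23.2 FPKM at 12 h and 342 ± 28.7 at 24 h, against 2.92 ± 0.111 at 0 h. GIGANTEA-like (CsaV3_6G005020) averaged 301 ± 7.57 FPKM at 12 h and 230 ± 14.6 at 24 h, against 5.8 ± 0.134 at 0 h. Not every clock gene took such a course. GIGANTEA (CsaV3_7G024490), named after its values were seen, averaged 7.43 ± 0.542 FPKM at 12 h and 15.9 ± 3.2 at 24 h, against 17.6 ± 0.607 at 0 h, and was called lower at 12 h but not at 24 h. The 12 h call was lost after median-ratio rescaling, with -0.94. The part of the hour or of the clock in the values of the pair was not tested.

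The gene IDs on either side of the pair gave no common course. CsaV3_4G037230, described as BTB/POZ domain-containing protein At2g30600, averaged 39.9 ± 4.02 FPKM at 12 h and 54.0 ± 12.8 at 24 h, against 5.15 ± 0.483 at 0 h (SD, n = 3 each), and was called higher at both times with log2 fold changes of 2.84 and 3.25. CsaV3_4G037240, a mitotic cyclin-2-like gene next to CsaV3_4G037250, was rare, with 0.0674 ± 0.0601 FPKM at 3 h, 0.245 ± 0.137 at 12 h and 1.27 ± 0.2 at 24 h, against 0.663 ± 0.212 at 0 h. Its call as lower at 3 h, at -1.02, was lost without 0 h replicate 3 (-0.90) or 3 h replicate 3 (-0.94). CsaV3_4G037270, described as NLP4, of a family of nitrate-responsive factors, lies next to CsaV3_4G037260. It averaged 22.7 ± 0.879 FPKM at 3 h, 4.57 ± 0.266 at 12 h and 11.6 ± 2.44 at 24 h, against 10.5 ± 0.447 at 0 h, and its log2 fold change was 1.08, -1.11 and 0.12. The 12 h call was lost after median-ratio rescaling, at -0.87. CsaV3_4G037280, a Niemann-Pick C1 protein, was not called, with log2 fold changes of -0.11, 0.58 and -0.09.

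The genes most like each member were found by Pearson's r of log2(FPKM + 0.5) over the 12 libraries, among 12279 tested genes with a description and a mean of at least 5 FPKM at some time. These libraries come from only 4 times, and every gene that steps the same way between them scores high, so r is given as a description. For CsaV3_4G037250, 143 genes had r above 0.95. The nearest was CsaV3_4G006610, subunit S of the chloroplast NAD(P)H-quinone oxidoreductase, with r = 0.998. It had 76.2, 67.7 and 66.5 FPKM at 3 h, 49.7, 55.8 and 58.8 FPKM at 12 h, and 13.9, 25.6 and 13.4 at 24 h, against 99.9, 99.9 and 109 at 0 h. Next were probable esterase PIR7A (CsaV3_7G008920, r = 0.995), a gene with the description hypothetical protein (CsaV3_4G006590, r = 0.993), chloroplast peptidyl-prolyl isomerase CYP28 (CsaV3_2G003530, r = 0.992) and an uncharacterized gene (CsaV3_3G039560, r = 0.992). PIR7A averaged 12.0 ± 5.32 FPKM at 24 h against 146 ± 21.7 at 0 h (SD, n = 3 each), the largest fold of the 5 genes.

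For CsaV3_4G037260, 18 genes had r above 0.95. The nearest was uncharacterized CsaV3_6G047690, with r = 0.972 and 8.09, 5.09 and 8.41 FPKM at 24 h, against 0.383, 0.156 and 0.223 at 0 h. WEB family protein At2g38370 (CsaV3_3G033220) followed with r = 0.968 and 7.42 ± 0.886 FPKM at 24 h against 1.71 ± 0.164 at 0 h (SD, n = 3 each). The next 2, CsaV3_3G038520 and CsaV3_7G005560, share the description F-box/kelch-repeat protein At2g44130-like and had nearly the same levels, with 13.2, 6.21 and 10.7 FPKM for the first of them at 24 h, against 0.0547, 0.1 and 0.0443 at 0 h. Whether they share fragments is not known, so they are not counted as separate genes of this course. BTB/POZ domain-containing protein At5g41330 (CsaV3_5G002700) had r = 0.965.

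**Figure D4:**
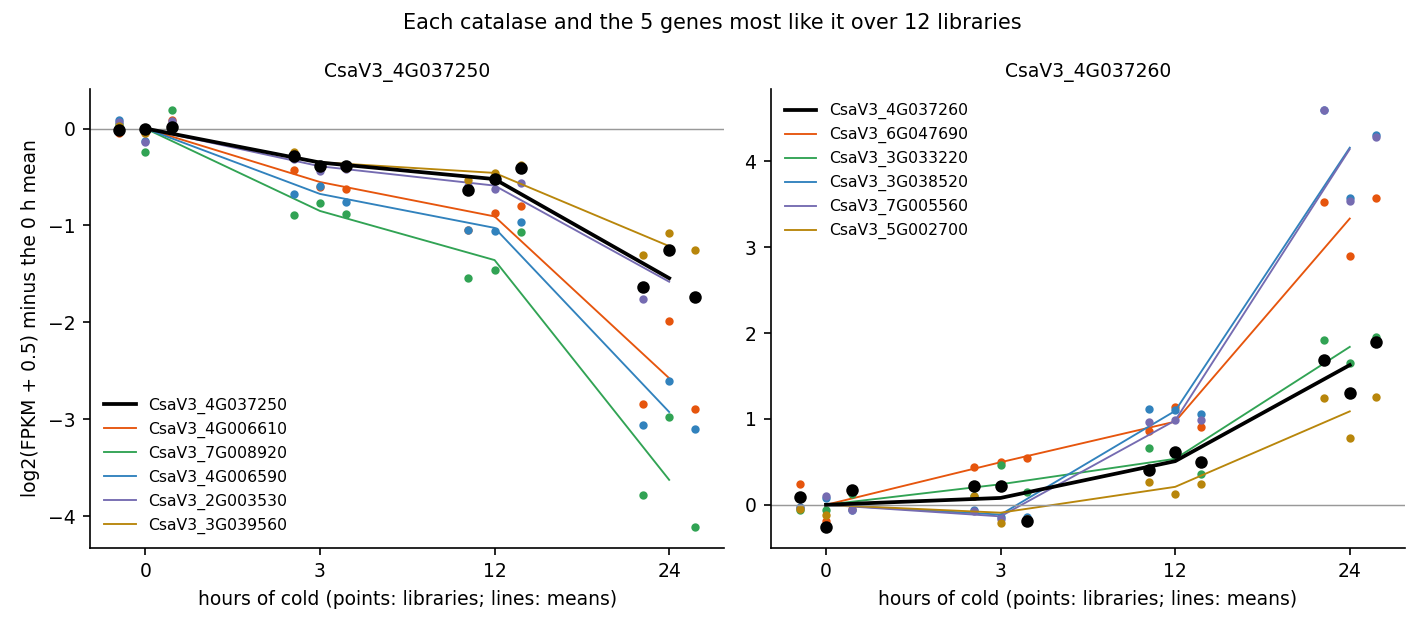
Log2(FPKM + 0.5) minus its 0 h mean (vertical axis) after 0, 3, 12 and 24 h of cold (horizontal axis) for CsaV3_4G037250 (left, black) and CsaV3_4G037260 (right, black) and the 5 genes most like each (colours). Points are the 3 libraries of each time, set side by side, and lines join the means. CsaV3_4G037250 reaches -1.54 at 24 h and CsaV3_4G037260 reaches 1.63.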

How the data were processed

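RNA-seq libraries were made by the authors from leaves of the 12 samples (4 times, 3 replicates). Reads were trimmed with cutadapt 1.9 and checked with FastQC, per the labels. The deposited table holds FPKM computed by the authors per gene and library, with 0.0001 standing for 0, which was set back to 0. Clean reads had been mapped to the cucumber Chinese Long V3 genome with HISAT2, per the study's methods. The program that computed FPKM and the read numbers are not stated in the sources used here. Columns of the authors' own comparisons (p-values, q-values and fold changes) were not used.

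FPKM was tested as log2(FPKM + 0.5) with limma 3.58.1 in R 4.3.3, all 12 libraries in 1 fit with time as the factor, on genes with at least 0.5 FPKM in 3 libraries, with Benjamini-Hochberg adjustment over 17497 genes. The fit was tested on simulated data with known changes and recovered 97.0% to 100% of the genes given log2 changes of 1.5 to 3, with at most 4 false calls. Each size of change was given to only 66 or 67 of the 17497 genes in a comparison, far fewer than were called in these data. Only well-expressed genes were given a change, so rare transcripts such as CsaV3_4G037260 were left out and their recovery rate is not known. The replicate numbers of the labels did not pair the libraries.

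The pair and the gene lists were chosen with earlier results of these data known. Genes named are both members, the remaining catalase, 2 gene IDs on each side of the pair, the 5 genes most like each member, and up to 2 called genes with the highest and 2 with the lowest fold change in each list and time. Other named genes are said to be so. Alternatives were pseudocounts of 0.1 and 1, other filters, median-ratio rescaling, quantile normalization, only the libraries compared, a replicate block and leaving out each library. No sequence or coordinates of these gene IDs were used here.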

Additional observations from a re-analysis of the deposited data

Results flagged for a closer look

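Malate synthase (CsaV3_1G009520), the glyoxylate cycle enzyme of the peroxisome, moved in opposite directions at different times. It was 3.70 lower on the log2 scale at 12 h than at 3 h (log2 difference -3.70; limma, adjusted p = 2.55e-08), being lower than 0 h at 12 h (-2.04) and higher at 3 h (1.66). It was then higher at 24 h than at 12 h by 4.48 (adjusted p = 2.01e-08), with 2.44 against 0 h at 24 h. Its 24 h replicate 2 had 35.8 FPKM beside 71.5 and 65.7 in the other libraries of that time.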

How the results depend on the processing

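No alternative turned the direction of CsaV3_4G037250 at any time, or of CsaV3_4G037260 at 12 or 24 h. The log2 fold change of CsaV3_4G037250 at 12 h was -0.25 with median-ratio rescaling, and quantile normalization gave -0.88, in place of -0.52. That of CsaV3_4G037260 was 0.75 at 12 h and 2.12 at 24 h with a pseudocount of 0.1, and 1.28 at 24 h with a pseudocount of 1. The log2 ratio of the pair at 12 h against 0 h was -1.27 with a pseudocount of 0.1. Leaving out 1 library at a time gave -1.69 to -1.44 for CsaV3_4G037250 and 1.49 to 1.79 for CsaV3_4G037260 at 24 h, and -0.05 to 0.22 for CsaV3_4G037260 at 3 h, where its sign is not settled.

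The replicate numbers did not pair the libraries, since deviations of same-numbered libraries correlated at -0.16 to 0.16 over 18 pairs, 2 of them above 0.1. With the replicate number as a block, 2671, 4598 and 5468 genes were called at 3, 12 and 24 h, in place of 2674, 4596 and 5474, and the fold changes of the pair stayed at -1.54 and 1.63 at 24 h.

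Of 3000 recomputed values of 50 of the named and tested genes, 26 lost their call, 22 gained one and 0 changed direction with a call. Without read numbers, the counting error of CsaV3_4G037260 near 0.5 FPKM cannot be given.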
